A study of Homo sapiens with 4 samples.

Results

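The genes described here are 38 genes of JAK-STAT signalling and its SOCS feedback, taken by gene symbol from the 60662 genes of the table deposited for NB4 cells. Each of the 38 symbols was found exactly once in that table. They comprise 9 receptor chains, 4 Janus kinases (JAKs), 6 STAT factors, the 8 genes of the SOCS family with CISH, 3 PIM kinases, 4 protein tyrosine phosphatases and 4 PIAS proteins.

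NB4 is a human acute promyelocytic leukemia line (AML subtype M3) that carries the PML-RARα fusion. The experiment asked how the transcriptome of these cells differs when the histone H3K27 demethylase JMJD3, encoded by KDM6B, is overexpressed. RNA was sequenced from 2 libraries of NB4 cells that received the control vector and 2 libraries of NB4 cells that received the JMJD3 vector. All 4 libraries are from transduced cells, so that lentiviral infection and, per the study's methods for cell lines, sorting on the GFP that the vector also encodes are shared by both groups, and a single line does not stand for the range of patient cells. Whether both libraries of a group trace back to independent transductions or cultures is stated nowhere, so the p-values measure only the spread between these samples, which may be technical. The deposited counts summed to 39078443 in vector library 1, 40768225 in vector library 2, 35176388 in JMJD3 library 1 and 34704909 in JMJD3 library 2. These values carry a scaling factor per library, and without it the totals were between 34190335 and 41876227 reads.

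Cytokine and interferon receptors have no kinase activity of their own and rely on Janus kinases bound to their cytoplasmic tails. On ligand binding the kinases phosphorylate the receptor and then STAT proteins, which pair, enter the nucleus and bind palindromic DNA elements, and among the genes they switch on are CISH and several SOCS genes, whose products bind receptors or kinases and damp the signal. In myeloid cells this pathway carries the signals of G-CSF, GM-CSF, erythropoietin, interferons and the interleukins, and tyrosine phosphatases and PIAS proteins restrain it at other steps.

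KDM6B (ENSG00000132510), the overexpressed gene, was at 15.8 and 13.7 CPM (counts scaled to library size with the TMM method) in vector libraries 1 and 2 and at 37.8 and 44.2 CPM in JMJD3 libraries 1 and 2. Both JMJD3 libraries were thus above both vector libraries, in the direction of the labels, with a log2 fold change of 1.48 (standard error, SE, 0.13, adjusted p = 0.00114 by edgeR's quasi-likelihood test with Benjamini-Hochberg adjustment). Whether these transcripts come from the vector or from the endogenous gene is not visible in counts per gene.

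Of 8 markers of the promyelocyte 7 exceeded a mean of 1 CPM over the 4 libraries. The exception was ELANE, at 0.339 and 0.192 CPM in vector libraries 1 and 2. In JMJD3 libraries 1 and 2 it was at 0.0268 and 0.0448 CPM, and it was not tested. The most abundant was MPO, the granule peroxidase, at 13900, 14100, 9380 and 9420 CPM in vector libraries 1 and 2 and JMJD3 libraries 1 and 2. The summed level of the list was 16800, 17600, 10700 and 10700 CPM in the same order, with 5 genes lower and 2 higher in JMJD3 cells. MPO makes up most of this sum, and the list moved unevenly. CTSG fell from 145 and 164 CPM to 11 and 9.6 CPM and PRTN3 from 2100 and 2530 CPM to 685 and 636 CPM (log2 fold changes -3.91 and -1.81), AZU1 fell by 0.56 and GFI1 by 0.36 on the log2 scale, and CEBPE and CD33 rose by log2 fold changes of 0.72 and 0.29. In bulk RNA, fewer cells of a type and less RNA per cell cannot be told apart, and the part of this shift in the changes below was not tested. Of 10 erythroid genes none exceeded a mean of 1 CPM over the 4 libraries, and 8 of them, the globins HBB, HBA1, HBA2 and HBD among them, had 0 counts in every library.

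Of the 38 genes, 35 passed the expression filter and were tested, and 12 of these were higher and 4 lower in JMJD3 cells at an adjusted p under 0.05 by edgeR. Across all 15246 genes tested, 40.7% were called in either direction, 21.6% higher and 19.1% lower. The 16 called members amount to 45.7% of those tested, a share near that of all genes, so the number of calls is not a result about these genes. Without JMJD3 replicate 2 the calls were 5 higher and 1 lower and 3000 over all genes, against 6198 with all libraries, and without vector replicate 1 they were 16, 6 and 8460. The groups did not overlap for 27 of the 35, against 74.3% of all genes tested. The changes were moderate. No member reached 2-fold at an adjusted p under 0.05 by edgeR, where 10.4% of all genes did, and the count was also 0 at an unadjusted p under 0.05, with the DESeq2 Wald test and with limma; without vector replicate 1 it was 2, IL6ST and SOCS5. The member log2 fold changes ran from -0.60 to 0.87. Their median was 0.19, against 0.04 for all genes tested, and their median size without regard to sign was 0.33, against 0.36.

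**Figure D1:**
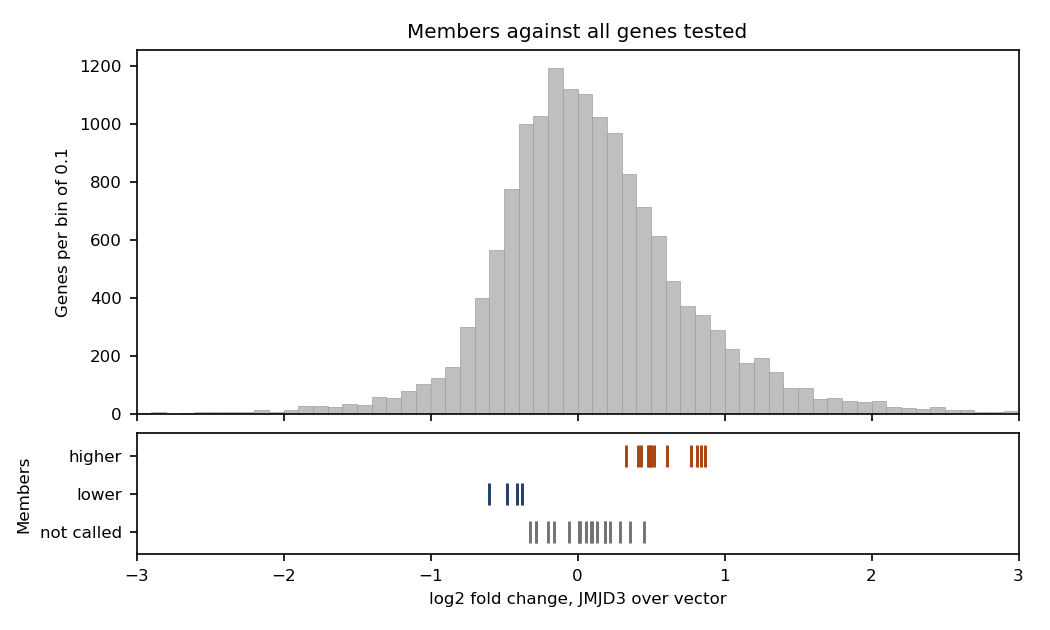
The upper panel counts all genes tested in bins of 0.1 of the log2 fold change of JMJD3 over vector, and each tick in the lower panel is a member that was called higher, called lower or not called at an adjusted p under 0.05 by edgeR. The 35 members lie between -0.60 and 0.87, within the bulk of the distribution.

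**Figure D2:**
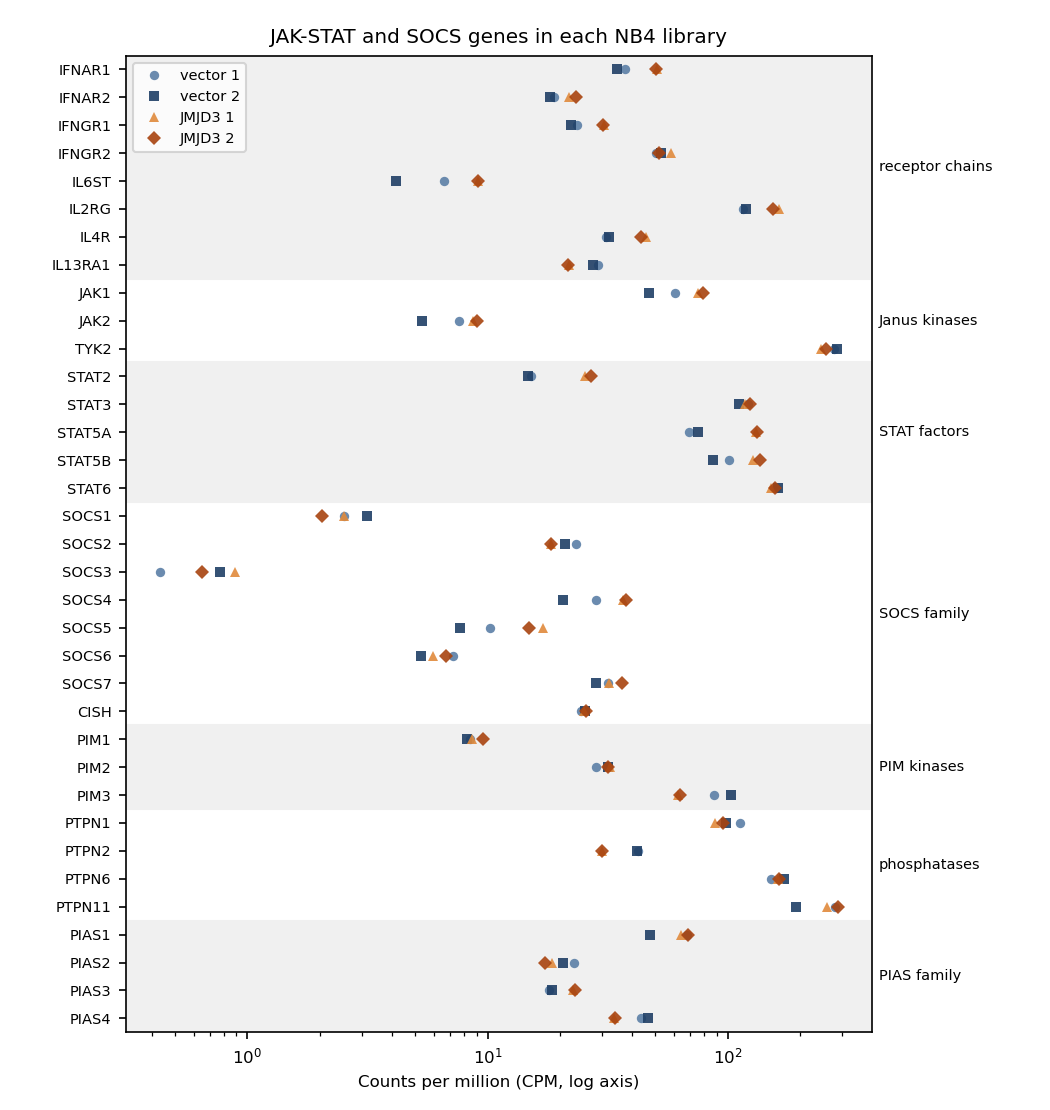
Each symbol is the level of a tested member in a single library, in CPM on a log axis, with vector libraries in blue and JMJD3 libraries in orange, ordered by role. The JMJD3 libraries lie to the right of the vector libraries for STAT2, STAT5A, STAT5B, SOCS4 and SOCS5, and to the left for PIM3, PTPN2 and PIAS4.

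Among the receptor chains 5 of the 8 tested rose and 1 fell, where 21.6% of all genes tested were higher and 19.1% lower, and the median log2 fold change of the 8 was 0.42. Their summed level was 313 and 310 CPM in the vector libraries and 401 and 385 CPM in the JMJD3 libraries. IL2RG (ENSG00000147168), the common gamma chain shared by the receptors for IL-2, IL-4, IL-7, IL-9, IL-15 and IL-21, was at 116 and 119 CPM in vector libraries 1 and 2 and at 163 and 155 CPM in JMJD3 libraries 1 and 2. Per transcript length it was the most abundant of the 9 chains, with a mean of 114 FPKM over the 4 libraries. Its vector libraries nearly coincided and both JMJD3 libraries stood above them, with a log2 fold change of 0.43 (SE 0.08, adjusted p = 0.00715 by edgeR). IL4R (ENSG00000077238), the chain that binds IL-4 and pairs with either IL2RG or IL13RA1, had 31.1 and 31.9 CPM in vector cells against 45.5 and 43.5 CPM in JMJD3 cells. It rose by a log2 fold change of 0.50 (SE 0.10, adjusted p = 0.00879 by edgeR), without overlap of the groups. IL13RA1 (ENSG00000131724), the partner of IL4R in the receptor for both IL-4 and IL-13, went the other way, from 28.8 and 27.5 CPM in vector cells to 21.8 and 21.6 CPM in JMJD3 cells. Both JMJD3 libraries were below both vector libraries, and the level fell by 0.38 on the log2 scale (SE 0.10, adjusted p = 0.0232 by edgeR). The 3 genes of the IL-4 and IL-13 receptors therefore did not move together, the chains IL4R and IL2RG being higher and IL13RA1 lower in JMJD3 cells.

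IFNAR1 (ENSG00000142166), a chain of the type I interferon receptor, was at 37.4 and 34.7 CPM in vector libraries 1 and 2 and at 50.9 and 50.1 CPM in JMJD3 libraries 1 and 2. IFNGR1 (ENSG00000027697), the ligand-binding chain of the interferon gamma receptor, was at 23.5 and 22.3 CPM in vector cells and at 30.5 and 30.4 CPM in JMJD3 cells. In both genes the groups were apart, and the log2 fold changes were 0.49 for IFNAR1 and 0.41 for IFNGR1 (SE 0.10 for each, adjusted p = 0.00975 and 0.0181 by edgeR). The partner chains IFNAR2 and IFNGR2 did not pass, with log2 fold changes of 0.29 (95% interval 0.04 to 0.53) and 0.09 (-0.15 to 0.33), and the difference between chains was not tested. IFNAR2 was called with upper quartile scaling (0.32) and without vector replicate 1 (0.27), and IFNGR2 ran from 0.0043 without JMJD3 replicate 1 to 0.18 without JMJD3 replicate 2. IL6ST (ENSG00000134352), which encodes gp130, the signalling chain shared by the IL-6 family, was far less abundant, at 6.57 and 4.14 CPM in vector cells and 9.14 and 9.11 CPM in JMJD3 cells. The JMJD3 libraries agreed closely while the vector libraries were apart, and the log2 fold change was 0.77 (SE 0.21, adjusted p = 0.0278 by edgeR). IL7R, the IL-7 binding chain, had 2 and 0 reads in vector cells and 2 and 1 in JMJD3 cells and was not tested. On FPKM, where the ratio to the count of IL6ST differs between libraries by up to 2.42 times and that of IFNAR1 by up to 1.83 times, limma did not call IFNAR1 (0.62 with 1 FPKM added), IFNGR1 (0.33), IL6ST (0.17) or IL13RA1 (-0.21). Without vector replicate 2 IL6ST was at 0.47, and without either JMJD3 replicate IFNAR1 (0.48 and 0.50), IFNGR1 (0.41 and 0.41), IL2RG (0.40 and 0.47), IL4R (0.47 and 0.53) and IL13RA1 (-0.38 and -0.37) kept their size but not their call. With no filter on low counts IL6ST (0.77) and IL13RA1 (-0.38) were not called.

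Janus kinases, the tyrosine kinases bound to these receptors, differed widely in level. Per transcript length TYK2 was the most abundant of all 38 genes, at a mean of 165 FPKM over the 4 libraries, followed within the family by JAK1 at 14.0 FPKM, JAK2 at 1.55 FPKM and JAK3 at 0.00107 FPKM. JAK1 (ENSG00000162434), which serves the gamma chain, gp130 and interferon receptors, was at 60.5 and 47.0 CPM in vector libraries 1 and 2 and at 75.4 and 78.7 CPM in JMJD3 libraries 1 and 2. The groups were apart although the vector libraries differed, and JAK1 rose by a log2 fold change of 0.52 (SE 0.13, adjusted p = 0.0213 by edgeR). JAK2, the kinase of the erythropoietin, thrombopoietin and GM-CSF receptors, was at 7.62 and 5.35 CPM in vector cells and at 8.66 and 9.0 CPM in JMJD3 cells. Both JMJD3 libraries were higher, but the log2 fold change of 0.45 (95% interval 0.02 to 0.88) missed the threshold (adjusted p = 0.0888 by edgeR). TYK2, which acts with JAK1 at the type I interferon receptor, was at 278 and 285 CPM in vector cells and at 245 and 257 CPM in JMJD3 cells. Here the JMJD3 libraries were the lower ones, with a log2 fold change of -0.16 (95% interval -0.34 to 0.01) that was not called (adjusted p = 0.116 by edgeR). JAK3, the partner of the gamma chain, had 0 reads in both vector libraries and in JMJD3 library 1 and 1 read in JMJD3 library 2, so that IL2RG was abundant in cells where its kinase was at or near 0. A count of 0 allows up to 3 reads, which is 0.0925 CPM in vector library 1, 0.0823 in vector library 2 and 0.0804 in JMJD3 library 1, and such limits cover counting error only. Without vector replicate 2 JAK1 was at 0.34, and it was not called without JMJD3 replicate 2 (0.49) or with no filter on low counts (0.52). JAK2 was at 0.68 and called without vector replicate 1, and at 0.21 and not called without vector replicate 2. TYK2 was called lower by limma on FPKM (-0.46 with 1 FPKM added) and without vector replicate 1 (-0.23).

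Of the STAT factors 3 of the 5 tested rose, where 21.6% of all genes tested were higher. STAT5A (ENSG00000126561) and STAT5B (ENSG00000173757) are close paralogs that transmit the signals of GM-CSF, IL-3, erythropoietin and other cytokines. STAT5A was at 69.1 and 75.4 CPM in vector libraries 1 and 2 and at 131 and 133 CPM in JMJD3 libraries 1 and 2. The 2 libraries of each group were close and the groups far apart, with a log2 fold change of 0.87 (SE 0.09, adjusted p = 0.00148 by edgeR), or 1.83-fold. STAT5B was at 101 and 87.2 CPM in vector cells and at 128 and 136 CPM in JMJD3 cells. It also rose without overlap, by a log2 fold change of 0.48 (SE 0.10, adjusted p = 0.0107 by edgeR), a call lost without JMJD3 replicate 2 (0.44). Since estimated counts can divide reads between such similar genes, the counts of both were also summed, giving 170 and 163 CPM in vector cells and 259 and 269 CPM in JMJD3 cells. The sum rose by a log2 fold change of 0.66 (SE 0.08, adjusted p = 0.00205 by edgeR). The ratio of STAT5A to STAT5B in CPM was 0.683 and 0.864 in the vector libraries and 1.03 and 0.979 in the JMJD3 libraries. Both genes held whole reads in all 4 libraries, where IFNAR2 held fractions of reads in every library. Whether reads of either gene were counted whole for the other, or left out, cannot be seen in such counts and was not tested.

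STAT2 (ENSG00000170581), the STAT specific to type I and type III interferon signalling, was at 15.1 and 14.8 CPM in vector libraries 1 and 2 and at 25.5 and 27.0 CPM in JMJD3 libraries 1 and 2. The vector libraries nearly coincided and lay well below both JMJD3 libraries, with a log2 fold change of 0.81 (SE 0.10, adjusted p = 0.00245 by edgeR). STAT3 and STAT6, which act downstream of gp130 and of IL4R, were not called, with log2 fold changes of 0.06 (95% interval -0.15 to 0.27, groups overlapping) and -0.06 (-0.24 to 0.13, JMJD3 libraries just below the vector libraries). The value of STAT6 ran from -0.11 without vector replicate 1 to -0.026 without JMJD3 replicate 1. STAT6 was the most abundant STAT of the 6 per transcript length, with a mean of 62.8 FPKM and 57.8 to 69.6 FPKM in single libraries. In vector cells STAT3 came next, at 32.5 and 28.3 FPKM, above STAT5A at 22.0 and 23.0 FPKM and STAT5B at 25.4 and 22.1 FPKM. In JMJD3 cells STAT5A came next, at 38.6 and 39.9 FPKM, with STAT3 at 32.3 and 34.3 FPKM and STAT5B at 32.0 and 35.1 FPKM. STAT4, a factor of IL-12 signalling, had 2 and 3 reads in vector cells and 3 and 5 in JMJD3 cells and was not tested. STAT2 and STAT5A were called in each of 14 alternatives.

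**Figure D3:**
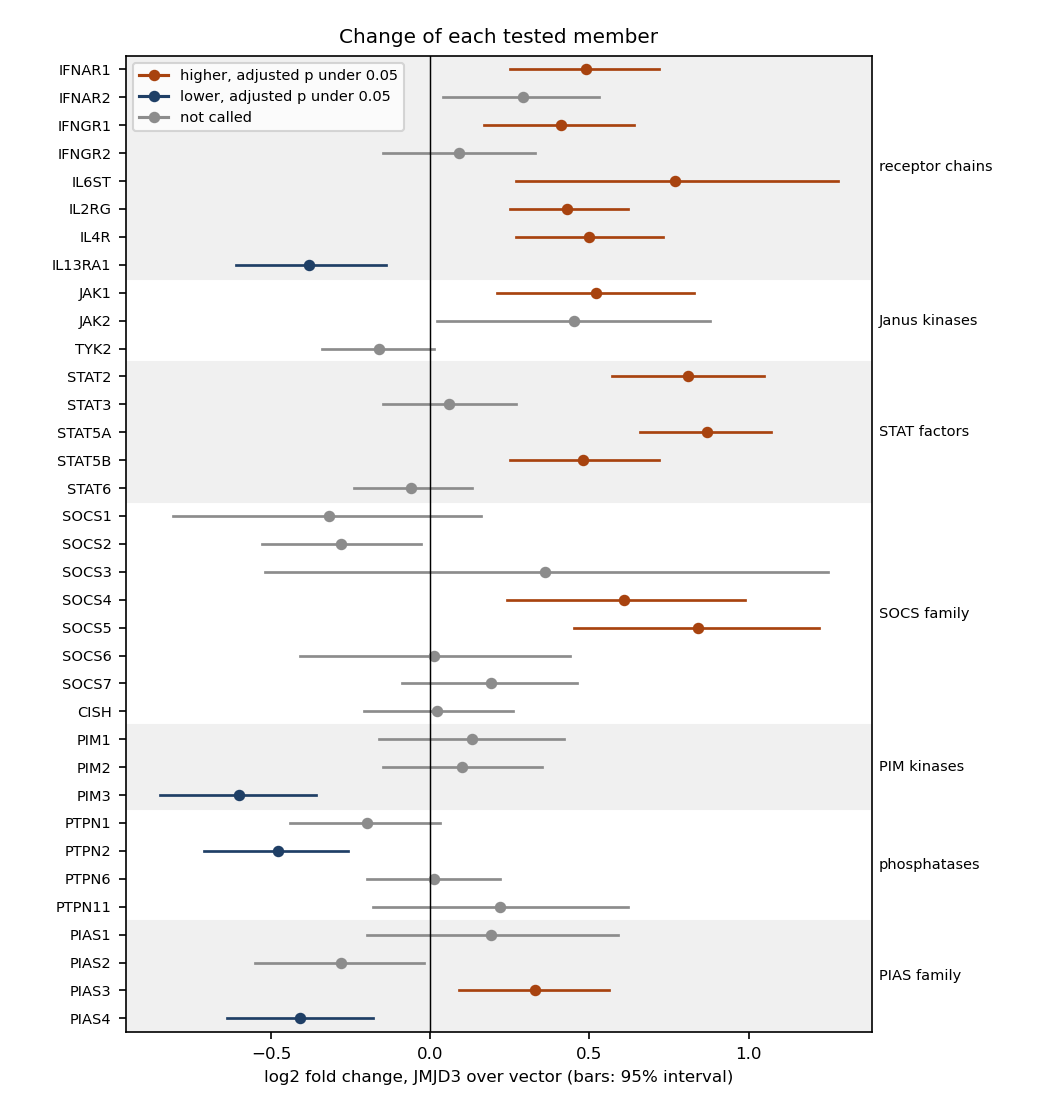
Points give the log2 fold change of JMJD3 over vector for each tested member and bars its 95% interval from edgeR's quasi-likelihood fit, coloured by the call. STAT5A at 0.87 and SOCS5 at 0.84 are highest and PIM3 at -0.60 is lowest.

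SOCS proteins and CISH are the feedback inhibitors of the pathway, and each carries an SH2 domain and a SOCS box that recruits a ubiquitin ligase. All 8 genes were tested, 2 of them rose, beside 21.6% of all genes, and the median log2 fold change was 0.10. SOCS5 (ENSG00000171150), linked to the EGF receptor and to IL-4 signalling, was at 10.2 and 7.68 CPM in vector libraries 1 and 2 and at 17 and 14.9 CPM in JMJD3 libraries 1 and 2. Both JMJD3 libraries stood above both vector libraries, with a log2 fold change of 0.84 (SE 0.16, adjusted p = 0.00853 by edgeR). SOCS4 (ENSG00000180008), its closest relative in the family, was at 28.2 and 20.6 CPM in vector cells and at 36.8 and 37.8 CPM in JMJD3 cells. It rose by a log2 fold change of 0.61 (SE 0.16, adjusted p = 0.0218 by edgeR), which was 0.40 without vector replicate 2 and lost its call with no filter on low counts (0.61).

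The members of the family known as classical feedback genes of STAT signalling, CISH, SOCS1, SOCS2 and SOCS3, were not called. CISH, a target and inhibitor of STAT5 signalling, was at 24.5 and 25.4 CPM in vector libraries 1 and 2 and at 25.2 and 25.6 CPM in JMJD3 libraries 1 and 2. The 4 values lay within a narrow span and the groups overlapped, with a log2 fold change of 0.02 (95% interval -0.21 to 0.26, adjusted p = 0.860 by edgeR), where STAT5A and STAT5B had risen. SOCS2, which restrains growth hormone and STAT5 signalling, was at 23.4 and 21.1 CPM in vector cells and at 18.4 and 18.3 CPM in JMJD3 cells. The JMJD3 libraries were below the vector libraries, but the log2 fold change of -0.28 (95% interval -0.53 to -0.03) did not pass (adjusted p = 0.0740 by edgeR). SOCS2 was called without vector replicate 1 and without vector replicate 2, and with the size factors of DESeq2.

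SOCS1, an inhibitor of JAK kinase activity in interferon signalling, was at 2.53 and 3.15 CPM in vector cells and at 2.52 and 2.04 CPM in JMJD3 cells, from 82 to 115 reads per library. The groups were barely apart, with a log2 fold change of -0.32 (95% interval -0.81 to 0.16, adjusted p = 0.234 by edgeR) that ran from -0.51 without vector replicate 1 to -0.17 without vector replicate 2. SOCS3, the inhibitor of gp130 and G-CSF receptor signalling, was at 0.432 and 0.768 CPM in vector cells and at 0.885 and 0.649 CPM in JMJD3 cells, from 14 to 33 reads per library. Its groups overlapped, and the log2 fold change of 0.36 had a 95% interval from -0.52 to 1.25 (adjusted p = 0.461 by edgeR), which includes a 2-fold rise. SOCS6 was at 7.18 and 5.29 CPM in vector cells and at 5.90 and 6.69 CPM in JMJD3 cells, with both JMJD3 values between the vector values. SOCS7 was at 31.8 and 28.2 CPM in vector cells and at 32.0 and 36.2 CPM in JMJD3 cells, with the lower JMJD3 library just above the higher vector library. The log2 fold changes of SOCS6 and SOCS7 were 0.01 (95% interval -0.41 to 0.44) and 0.19 (-0.09 to 0.46), and neither was called (adjusted p = 0.956 and 0.238 by edgeR). SOCS7 was at 0.098 without vector replicate 2 and 0.096 without JMJD3 replicate 2. The sign of the small values of CISH and SOCS6 turned with the size factors of DESeq2, to -0.010 and -0.018, and that of SOCS3 without vector replicate 1, to -0.025. Per transcript length SOCS2 was the most abundant of the family, at a mean of 16.9 FPKM, followed by CISH at 12.8 FPKM, and SOCS3 was lowest at 0.276 FPKM.

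Since STAT dimers bind palindromic DNA elements, the promoters of the members were searched for the palindrome TTCNNNGAA and for a wider form with 4 bases in place of 3 between its arms, both of which read the same on either strand. RefSeq promoter windows (GRCh38.p14, from 250 bases before to 50 bases after a start) were matched for 33 of the 38 genes, in 47 windows since a gene can have several starts; IFNAR2, PTPN11, SOCS2, SOCS5 and SOCS7 were not matched. TTCNNNGAA was found in 1 of the 47 windows, that of CISH, and in 7.66% of 35116 windows of all genes. The wider form was likewise found in 1 of the 47, upstream of the most distal of 3 STAT5A starts, and in 6.44% of all windows. The CISH window held TTCNNNGAA 4 times, at 241, 230, 129 and 112 bases before the start, and 7 of the 35116 windows held it 4 times or more. The stretches with these matches are shown 5′ to 3′ with the matches in capitals, for the CISH and STAT5A windows, the only ones of the members with a match. CISH lies on the minus strand of chr3:50611858-50612024 and STAT5A on the plus strand of chr17:42287190-42287239, both upstream of the start.
CISH: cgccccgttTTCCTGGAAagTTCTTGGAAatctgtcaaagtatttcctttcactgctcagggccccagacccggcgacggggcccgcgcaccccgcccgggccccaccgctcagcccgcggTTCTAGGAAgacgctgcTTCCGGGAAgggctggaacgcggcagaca
STAT5A: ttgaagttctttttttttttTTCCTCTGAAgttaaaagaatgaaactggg
The match is a description of letters and says nothing of binding, and a window without a match says only that these letters are not in it.

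PIM kinases are serine/threonine kinases whose genes are STAT targets and whose products favour survival and growth, and 1 of the 3 fell, beside 19.1% of all genes tested. PIM3 (ENSG00000198355) was at 87.9 and 103 CPM in vector libraries 1 and 2 and at 62.2 and 63.6 CPM in JMJD3 libraries 1 and 2. The JMJD3 libraries were close to each other and below both vector libraries, and PIM3 fell by 0.60 on the log2 scale (SE 0.10, adjusted p = 0.00608 by edgeR), a call kept in each of 14 alternatives. PIM1 was at 8.48 and 8.20 CPM in vector cells and at 8.60 and 9.60 CPM in JMJD3 cells. PIM2 was at 28.2 and 31.6 CPM in vector cells and at 32.5 and 31.6 CPM in JMJD3 cells. Both stayed within a narrow span, with log2 fold changes of 0.13 (95% interval -0.16 to 0.42) and 0.10 (-0.15 to 0.35) that were not called (adjusted p = 0.430 and 0.484 by edgeR), PIM1 at 0.21 without JMJD3 replicate 1 and 0.05 without JMJD3 replicate 2. Per transcript length PIM3 was the most abundant of the 3, at a mean of 38.1 FPKM, against 18.3 FPKM for PIM2 and 4.61 FPKM for PIM1.

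Among the phosphatases, which remove phosphate from receptors, JAKs and STATs, PTPN2 (ENSG00000175354) was the member called. This gene, which encodes TC-PTP, a phosphatase of JAK1 and of nuclear STATs, was at 42.2 and 42.0 CPM in vector libraries 1 and 2 and at 30.1 CPM in both JMJD3 libraries. The libraries of each group agreed closely, and PTPN2 fell by 0.48 on the log2 scale (SE 0.09, adjusted p = 0.00897 by edgeR); without either JMJD3 replicate it was at -0.48 and not called. PTPN1, which encodes PTP1B, PTPN6, which encodes SHP-1, and PTPN11, which encodes SHP-2, had log2 fold changes from -0.20 to 0.22 and were not called. PTPN6 was the most abundant phosphatase per transcript length, with a mean of 98.7 FPKM, and its sign turned with the size factors of DESeq2, to -0.024. PTPN11 was called higher without vector replicate 1 (0.47), the vector library with the higher value, and its sign turned without vector replicate 2 (-0.035). PTPN1 was called lower without vector replicate 2 (-0.30).

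PIAS proteins are SUMO ligases that bind STATs, and their genes moved both ways. PIAS4 (ENSG00000105229) was at 43.6 and 46.4 CPM in vector libraries 1 and 2 and at 33.6 and 34.1 CPM in JMJD3 libraries 1 and 2. Both JMJD3 libraries were lower, and PIAS4 fell by 0.41 on the log2 scale (SE 0.10, adjusted p = 0.0170 by edgeR). PIAS3 (ENSG00000131788), known as an inhibitor of STAT3, was at 18.1 and 18.6 CPM in vector cells and at 22.8 and 23.2 CPM in JMJD3 cells. It rose by a log2 fold change of 0.33 (SE 0.10, adjusted p = 0.0372 by edgeR), the smallest called change of the members, and lost the call in 8 of 14 alternatives, with DESeq2 size factors (0.29) among them. PIAS4 was not called by limma on FPKM, at -0.16 with 1 FPKM added, and neither gene was called without JMJD3 replicate 1 (0.34 for PIAS3, -0.40 for PIAS4) or without JMJD3 replicate 2 (0.32 and -0.42). PIAS1 and PIAS2 were not called, with log2 fold changes of 0.19 and -0.28. PIAS1 was called without vector replicate 1 (0.43), and its sign turned without vector replicate 2 (-0.045). PIAS2 was called without vector replicate 2 (-0.36) and was at -0.055 by limma on FPKM with 1 FPKM added.

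Several members differed between the vector libraries. In 10 of the 35 the libraries of the vector group differed by over 0.3 on the log2 scale, a limit chosen after the values were seen, and in 2 the JMJD3 libraries did. These shares stood beside 33.2% and 14.8% of all genes tested. In 8 of the 10, IL6ST, PTPN11, PIAS1, JAK2, SOCS4, SOCS6, SOCS5 and JAK1, vector library 2 was the lower. Vector library 1 carries the number 20, and the remaining 3 libraries carry the number 17. These numbers were taken as lanes, but the sample titles give no lane. Among the libraries with the number 17, which hold a single vector library, all 16 called members kept their direction. In that fit the vector library is assumed to vary like the JMJD3 libraries. The part of whatever this number stands for and of the vector gap in these changes was not tested.

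Other genes of the pathway were described from lists of symbols. Of 29 further receptor chains 14 were tested, 7 were higher and 1 lower, with a median log2 fold change of 0.30, where 21.6% of all genes tested were higher and 19.1% lower. EPOR, the erythropoietin receptor, was at 2.90 and 2.99 CPM in vector libraries 1 and 2 and at 8.82 and 8.66 CPM in JMJD3 libraries 1 and 2. The groups were far apart, with a log2 fold change of 1.57 (SE 0.13, adjusted p = 0.00107 by edgeR), in cells where 8 of 10 erythroid genes had 0 counts. IL10RA, the IL-10 binding chain, was at 0.493 and 0.521 CPM in vector cells and at 2.81 and 2.84 CPM in JMJD3 cells, from 16 to 127 reads. It had the largest rise of the list, a log2 fold change of 2.47 (SE 0.22, adjusted p = 0.00115 by edgeR), which limma on FPKM did not call (0.55 with 1 FPKM added, 1.24 with 0.1). LEPR, the leptin receptor, and CSF2RB, the beta chain shared by the GM-CSF, IL-3 and IL-5 receptors, rose by log2 fold changes of 0.87 and 0.61 (adjusted p = 0.0214 and 0.0269 by edgeR). LEPR was at 4.26 and 2.69 CPM in vector cells and at 6.03 and 6.67 CPM in JMJD3 cells. CSF2RB was at 12.1 and 9.11 CPM in vector cells and at 14.8 and 17.6 CPM in JMJD3 cells. In both genes the vector libraries differed: without vector replicate 2 LEPR was at 0.57 and CSF2RB at 0.41, where CSF2RB was not called, nor was it without JMJD3 replicate 2 (0.48). With no filter on low counts neither LEPR (0.87) nor CSF2RB (0.61) was called, nor were they by limma with 0.1 FPKM added (0.93 and 0.62).

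Ligands were mostly silent. Of 28 genes 5 were tested, 1 was higher and 1 lower (40.0% called, near the 40.7% of all genes), and 21 had at most 3 reads in every library, 13 of them with 0 reads throughout. CLCF1, a gp130 cytokine, went from 6.54 and 6.39 CPM in vector cells to 4.85 and 4.61 CPM in JMJD3 cells. EBI3, a subunit of IL-27 and IL-35, went from 0.586 and 0.631 CPM to 1.39 and 1.45 CPM. The groups were apart in both: CLCF1 fell by 0.45 on the log2 scale and EBI3 rose by a log2 fold change of 1.22 (adjusted p = 0.0333 and 0.00950 by edgeR), and neither was called with the DESeq2 Wald test (-0.48 and 1.19). CLCF1 was also not called without JMJD3 replicate 1 (-0.48) or 2 (-0.41), with no filter on low counts (-0.45) or by limma on FPKM (-0.41 with 1 FPKM added), and lost its call in 7 of 14 alternatives.

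All 21 adaptors and turnover genes were tested, 6 were higher and 3 lower, with a median log2 fold change of -0.03, and the 42.9% called were near the 40.7% of all genes. CBLB, a ubiquitin ligase, was at 1.08 and 1.15 CPM in vector cells and at 3.0 and 3.16 CPM in JMJD3 cells. PTPRC, which encodes the CD45 phosphatase, was at 80.4 and 50.7 CPM in vector cells and at 118 and 127 CPM in JMJD3 cells. GAB2, a docking protein that binds SHP-2, was at 18.3 and 17.2 CPM in vector cells and at 27.8 and 30 CPM in JMJD3 cells. All 3 were higher in both JMJD3 libraries than in either vector library, by log2 fold changes of 1.46, 0.90 and 0.70 (adjusted p = 0.00255, 0.0139 and 0.00402 by edgeR). PTPRC was at 0.60 without vector replicate 2 and was not called with no filter on low counts (0.90), and GAB2 was not called by limma on FPKM (0.38 with 1 FPKM added). USP18, the ISG15 protease that blocks IFNAR2 signalling, was at 4.96 and 5.68 CPM in vector cells and at 3.30 and 3.33 CPM in JMJD3 cells. It fell by 0.69 on the log2 scale (SE 0.15, adjusted p = 0.0129 by edgeR), while the receptor chain IFNAR1 and STAT2 rose; without JMJD3 replicate 1 or 2 it was at -0.68 and -0.69 and not called, nor was it by limma with 0.1 FPKM added (-0.68).

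Of 25 genes known as STAT targets 21 were tested, and 6 were higher and 3 lower, with a median log2 fold change of 0.06, again 42.9% called against 40.7% of all genes. CCND2, which encodes cyclin D2 and is a target of STAT5, was at 158 and 193 CPM in vector libraries 1 and 2 and at 68.5 and 60.0 CPM in JMJD3 libraries 1 and 2. Both JMJD3 libraries were far below the vector libraries, and CCND2 fell by 1.45 on the log2 scale (SE 0.12, adjusted p = 0.00107 by edgeR). BCL3, a nuclear cofactor of NF-κB, went from 6.94 and 7.24 CPM to 4.10 and 4.05 CPM and fell by 0.80 on the log2 scale (adjusted p = 0.00530 by edgeR). CEBPD, a C/EBP factor downstream of STAT3, was at 44.5 and 50.7 CPM in vector cells and at 80.7 and 70.7 CPM in JMJD3 cells. CEBPB, its relative, was at 12.5 CPM in both vector libraries and at 21.8 and 17.4 CPM in JMJD3 cells. Both C/EBP genes rose, by log2 fold changes of 0.67 and 0.65 (adjusted p = 0.00575 and 0.0114 by edgeR), CEBPB without a call when JMJD3 replicate 1 was left out (0.48). CCND1, ID1, JUNB and ICAM1 were also called higher and MYC lower.

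**Figure D4:**
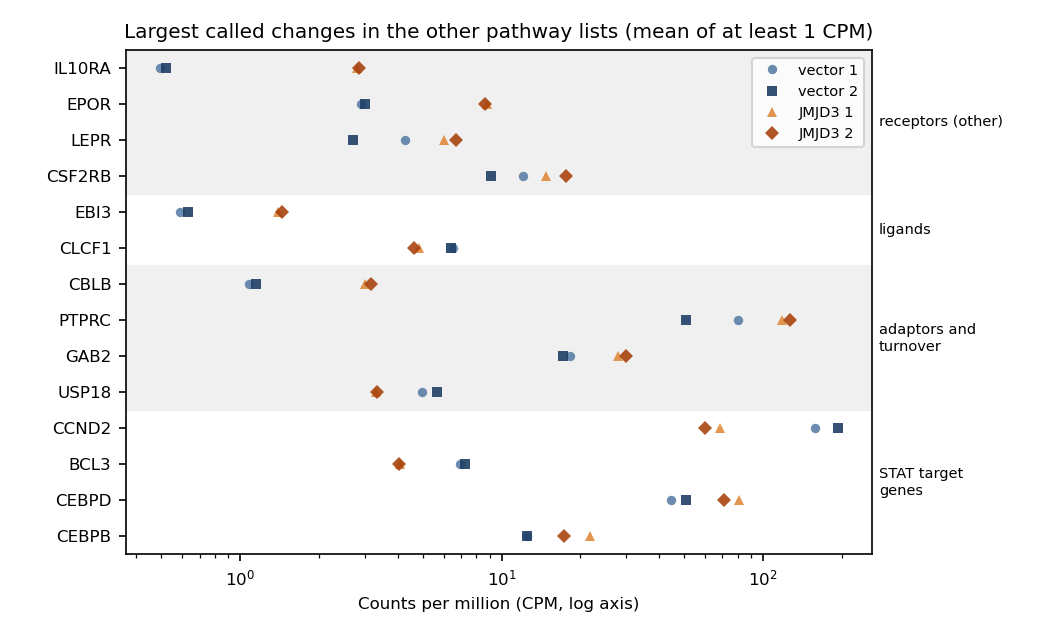
Each symbol is the level of a gene in a single library, in CPM on a log axis, for up to 4 genes of each list with the largest called change and a mean of at least 1 CPM. EPOR went from 2.90 and 2.99 CPM in vector cells to 8.82 and 8.66 CPM in JMJD3 cells, and CCND2 from 158 and 193 CPM to 68.5 and 60.0 CPM.

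**Figure D5:**
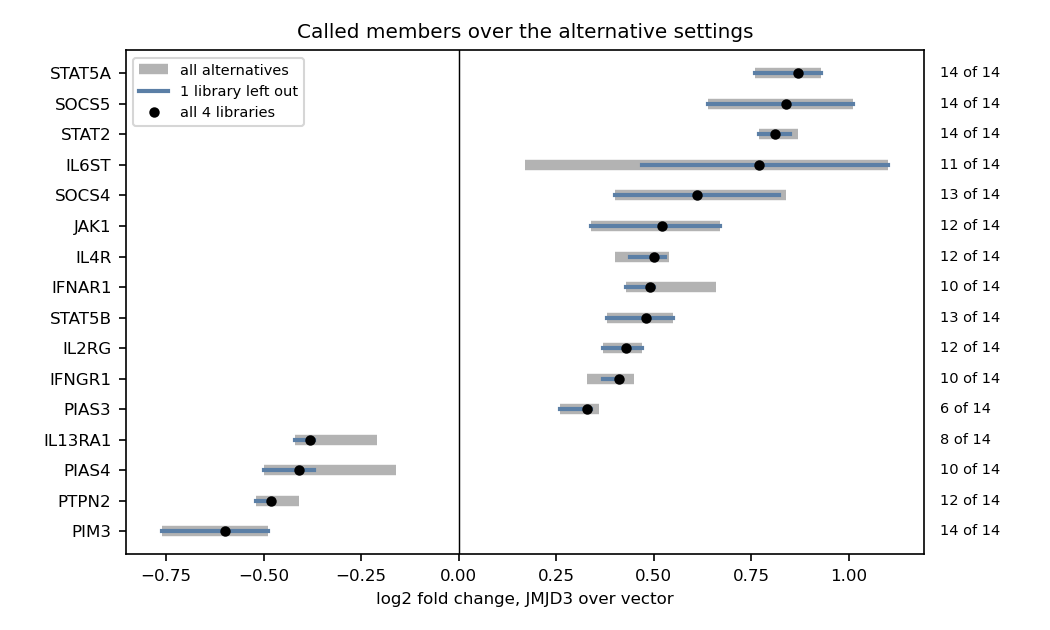
For each of the 16 called members the point is the log2 fold change from all 4 libraries, the grey bar its range over 14 alternative settings and the blue line its range with a library left out; the number at the right counts the alternatives in which direction and call stayed the same. STAT5A, STAT2, SOCS5 and PIM3 kept both in 14 of 14, and PIAS3 in 6.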

How the data were processed

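RNA of the 4 NB4 libraries was sequenced on an Illumina HiSeq. The table deposited by the authors lists, for each gene, estimated counts and FPKM in every library, beside columns of their own comparison (mean FPKM, log2 fold change, p-value and FDR) that were not used. The study's methods name STAR, hg19, HTSeq-count and DESeq2, the submitters' processing notes CASAVA 1.8, TopHat2 2.0.4, RSEM, edgeR and GRCh38, and which of these made the table is not stated. Of the nonzero deposited counts, 93.3% are whole multiples (within 0.05 reads) of a step that is constant within a library, so they are counts multiplied by 1 factor per library. Reads quoted here are counts divided by that step.

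Deposited counts were rounded, filtered with filterByExpr (15246 of 60662 genes kept), normalised by TMM and compared in edgeR 4.0.16 (glmQLFit, glmQLFTest; R 4.3.3), with Benjamini-Hochberg adjustment over all genes kept and calls at an adjusted p under 0.05. The standard error is the size of the log2 fold change divided by the square root of F. The functions were tested on simulated counts with known changes. Alternatives were other scalings, limma 3.58.1 on FPKM (log2, after adding 1 or 0.1), the DESeq2 1.42.0 Wald test, other filters, a replicate block, and each library left out. Values in every library are given for called members and, whatever they did, for SOCS genes, CISH, JAKs and PIMs, and for up to 4 called genes of each list by size of change with a mean of at least 1 CPM. Lists of T cell, B cell, monocyte and fibroblast or epithelial markers are given under other observations. Members and lists were chosen with earlier results of these data known. A planned comparison of SOCS protein sequences was not made.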

Additional observations from a re-analysis of the deposited data

How the results depend on the processing

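KDM6B stayed called in every alternative, with a log2 fold change of 1.36 to 1.58 when a library was left out and 1.47 with the replicate block. Leaving out a library moved the members called higher between 5 and 16 and those called lower between 1 and 7, the lowest counts without a JMJD3 library, where the lone sample is assumed to vary like the other group. With the replicate block 12 members were called higher, 11 of them the same, and 3 lower, with 5682 calls over all genes against 6198; IL13RA1 (-0.38), PIAS3 (0.33) and CLCF1 (-0.45) were then not called, and JAK2 (0.46) was. Same-numbered libraries did not deviate together (correlation -0.314), and a block with crossed numbers, chosen after seeing the data, called 15 higher and 7 lower, with 8107 calls over all genes. A limit of 2-fold left 0 higher and 0 lower, and 1.5-fold left 5 and 1. Reads recovered without the scaling factor, also chosen after seeing the data, called 12 and 4. Of the 16 called members 4 kept direction and call in all 14 alternatives and none reversed. Reversals fell on members that were not called: without vector replicate 2, STAT3, SOCS6, PTPN11 and PIAS1; without vector replicate 1, SOCS3, CISH, PIM2 and PTPN6; without JMJD3 replicate 2, SOCS6 (-0.080); with DESeq2 size factors and the DESeq2 Wald test, SOCS6 (-0.018, -0.017), CISH (-0.010, -0.010) and PTPN6 (-0.024, -0.024); with limma on log2(FPKM + 1) and log2(FPKM + 0.1), SOCS6 (-0.072, -0.10). With a library left out, the values ran from -0.0098 to 0.10 for STAT3, -0.025 to 0.82 for SOCS3, -0.19 to 0.21 for SOCS6, -0.046 to 0.045 for CISH, -0.024 to 0.18 for PIM2, -0.12 to 0.097 for PTPN6, -0.035 to 0.47 for PTPN11 and -0.045 to 0.43 for PIAS1. The cause was not tested.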

Other observations

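Genes of the lists outside the rule for named genes are added here, chosen after their values were seen. IL2RB, the chain that joins IL2RG in the IL-2 and IL-15 receptors, had 5 and 8 reads in vector libraries 1 and 2 and 24 and 35 in JMJD3 libraries 1 and 2. Both JMJD3 libraries were higher, with a log2 fold change of 1.92 (standard error, SE, 0.38, adjusted p = 0.00917 by edgeR's quasi-likelihood test). IL9R, another partner of IL2RG, had 38 and 42 reads in vector cells and 26 and 22 in JMJD3 cells. Its level fell by 0.96 on the log2 scale (SE 0.29, adjusted p = 0.0365 by edgeR). Per transcript length IL9R was at 0.66 and 0.665 FPKM in vector cells and at 0.707 and 0.276 FPKM in JMJD3 cells. On FPKM its groups thus overlapped. IRF9, which joins STAT2 in the interferon-stimulated complex, was at 1.99 and 3.36 CPM in vector cells and at 4.68 and 4.09 CPM in JMJD3 cells. The groups were apart, but the log2 fold change of 0.71 (SE 0.25) was not called (adjusted p = 0.0607 by edgeR). CCND1, which encodes cyclin D1, rose by a log2 fold change of 0.63 (adjusted p = 0.00539 by edgeR), from 37.6 and 33.4 CPM to 53.8 and 56.1 CPM, in the libraries where CCND2 fell.

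Marker lists of other blood and tissue cells held few abundant genes, and all their called genes are named. Of 9 T cell genes 3 exceeded a mean of 1 CPM, the most abundant was CD4 at 173, 191, 184 and 183 CPM in vector libraries 1 and 2 and JMJD3 libraries 1 and 2, the list summed to 186, 206, 235 and 230 CPM, and CD5 was at 0. TRAC, the T cell receptor alpha constant gene, went from 9.34 and 9.54 CPM to 39.4 and 35.5 CPM (log2 fold change 1.99, adjusted p = 0.000375 by edgeR), and CD2 rose by a log2 fold change of 1.38. Of 5 B cell genes 3 exceeded 1 CPM, with CD79B at 15.5, 19.1, 19.0 and 16.8 CPM, a sum of 25.9, 30.7, 36.6 and 32.7 CPM, and MS4A1 at 0, and CD79A rose by a log2 fold change of 0.83. Of 6 monocyte or macrophage genes 2 exceeded 1 CPM, with CSF1R at 4.93, 3.84, 12.9 and 12.9 CPM, a sum of 7.24, 5.71, 15.4 and 15.4 CPM, and FCGR3A at 0, and CSF1R rose by a log2 fold change of 1.56. Of 6 fibroblast or epithelial genes 2 exceeded 1 CPM, with EPCAM at 4.53, 5.29, 1.21 and 1.16 CPM, a sum of 7.06, 7.89, 4.37 and 3.83 CPM, and COL1A2 at 0; EPCAM fell by 2.05 on the log2 scale and PDGFRB rose by 1.70. The erythroid list summed to 0.432, 0.987, 1.26 and 1.05 CPM, nearly all of it EPB42.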
